A study of Rattus norvegicus with 30 samples.

Results

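Mitochondrial protein import and folding was followed in rat hearts through 39 genes: 21 whose names begin with Timm or Tomm, for the translocases of the inner and outer membrane, and 18 of 20 chaperones, processing peptidases, proteases and scaffold proteins chosen by name. Immp1l and Immp2l, subunits of the inner membrane peptidase, had no value here. The 39 genes were part of 14694 gene names on the array. Shares of all names below also count probes named only by an identifier, 22220 to 24487 names in a comparison. The rats were untreated animals of the inbred F344 strain from the breeding colony of the National Center for Toxicological Research, fed NIH-31 diet, and 5 females and 5 males were killed at each of 8, 21 and 78 weeks of age. RNA of each whole heart was hybridised to 1 one-colour Agilent array, 30 arrays in all, with no pooling of rats.

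Nearly all proteins of the mitochondrion are encoded in the nucleus, made in the cytosol and threaded unfolded through its membranes. The TOM complex of the outer membrane takes up the precursor, small Tim proteins escort hydrophobic precursors across the intermembrane space, and the TIM22 and TIM23 complexes insert it into, or pull it through, the inner membrane. On the matrix side Hspa9 (mortalin), tethered by Timm44, draws the chain in, the peptidase Pmpca/Pmpcb removes the targeting sequence, and the Hspd1/Hspe1 chamber (Hsp60 and Hsp10) folds it. Lonp1, Clpp with Clpx, and the membrane-bound AAA proteases degrade what fails to fold. Heart muscle cells are packed with mitochondria and depend on this supply.

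A level below is the log2 of a probe's processed signal over the 75th percentile of all signals of the same array, so that 0 is the level of that percentile and a difference of 1 is a doubling. Of several probes with a gene's name the brightest was its main probe. The main probes of 38 genes lay well above background on all 30 arrays, while that of Timm8a2, a paralog of the small Tim proteins, did so on none and was left out. The shares of all names were taken without this filter and include names near background. They are thus not a like-for-like measure for the 38 genes. Array brightness differed between groups: 3 arrays of 21-week males had 75th percentiles of 39.9, 65.6 and 72.1 signal units (male replicates 2, 4 and 5), whereas the other 21-week arrays lay between 82.7 and 123.1. Of the 78-week arrays 2 go against their sex labels: the Y-linked gene Ddx3y stood at -0.90 in female replicate 2, where the other males lay between -1.16 and -0.57, and at -5.48 in male replicate 3, where the other females lay between -5.99 and -5.05. Of 10 cardiomyocyte markers 9 were well above background on every array. By the study's methods the RNA samples of an age, females with males, were handled in a batch of their own, so that age and this batch cannot be told apart. Slide and scan day were shared in part: 1 slide held arrays of 8 and of 78 weeks, and 6 of the 78-week arrays were scanned with those of 8 weeks and 4 with those of 21 weeks. On the slides females and males held different positions on every slide, so that sex and array position cannot be told apart either.

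The probes themselves differ in what they read, and 4 genes serve as examples. The probe of Timm44, the gene with the clearest difference between the oldest and the youngest rats, lay at chr12:1524003-1524062 on the plus strand in the array's annotation (rat build rn3). For Lonp1, Timm13 and Timm8b a further probe lay on the opposite strand of the main probe, and the capitals mark the bases that the 2 probes of a pair share as complements. The Timm8b pair lay over the same 60 bases, chr8:53984806-53984865. The Timm13 pair, chr7:10320228-10320512 and chr7:10320254-10320538, shared 34 bases, and the Lonp1 pair, chrUn:25163355-25163485 and chrUn:25163359-25163489, shared 56.
Timm44: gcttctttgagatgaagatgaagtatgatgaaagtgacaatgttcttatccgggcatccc
Lonp1 main probe: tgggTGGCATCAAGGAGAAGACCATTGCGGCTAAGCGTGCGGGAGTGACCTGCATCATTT
Lonp1 opposite strand: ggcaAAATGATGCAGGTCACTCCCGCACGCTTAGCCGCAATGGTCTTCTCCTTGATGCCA
Timm13 main probe: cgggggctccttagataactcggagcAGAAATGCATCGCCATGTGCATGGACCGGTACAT
Timm13 opposite strand: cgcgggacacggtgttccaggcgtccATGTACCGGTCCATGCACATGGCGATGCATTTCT
Timm8b main probe: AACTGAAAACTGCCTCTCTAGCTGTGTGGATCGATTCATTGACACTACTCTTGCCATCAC
Timm8b opposite strand: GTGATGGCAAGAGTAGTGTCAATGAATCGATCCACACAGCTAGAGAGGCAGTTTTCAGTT

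Between 8 and 78 weeks few of the import and folding genes were called different, and the count depended on the arrays and the processing. None of the 38 genes was higher at 78 weeks and 2 were lower in limma at an adjusted p under 0.05, against 6.67% of all names called higher and 6.21% called lower. The genes' median difference, 78 minus 8 weeks, was -0.07 on the log2 scale, against 0.04 over all names, and 14 genes had the higher and 24 the lower mean at 78 weeks. No gene had every rat of one age above every rat of the other, where 1.15% of all names had every 78-week rat above and 1.47% every 78-week rat below the 8-week rats. With quantile normalization, which gives every array the same distribution of signals, 2 genes were called higher and 7 lower, of 6.04% and 8.72% of all names. Among arrays scanned on the same day 1 gene was higher and 10 were lower, with each array left out in turn 0 to 1 were higher and 1 to 6 lower, and with a normexp background correction none was lower although the median was -0.31.

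The larger of the 2 differences was that of Timm44, the inner membrane protein that holds the mortalin motor at the import channel. Its level ran from -2.34 to -1.84 with a median of -2.13 in the 10 rats of 8 weeks, from -2.61 to -1.48 with a median of -2.12 in those of 21 weeks, and from -2.94 to -2.22 with a median of -2.63 in those of 78 weeks. Most 78-week rats were thus below most younger rats, with some overlap. Timm44 was lower by a difference of -0.48 (SE 0.10) between 78 and 8 weeks, a 1.39-fold fall (limma, adjusted p = 0.00123). Among arrays scanned on the same day the difference was -0.52 (adjusted p = 0.00173), and with the slide as a fixed block it was -0.47 (adjusted p = 0.482). With the normexp correction the sign turned, to 0.0572 (adjusted p = 0.677).

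Yme1l1, the inner membrane AAA protease that faces the intermembrane space, was lower by -0.18 (SE 0.06, limma adjusted p = 0.0357) at 78 than at 8 weeks. Its level had a median of 1.13 at 8 weeks (highest 1.25), and ran from 0.76 to 1.11 at 21 weeks and from 0.86 to 1.11 at 78 weeks, so that the ages overlapped. Without the 2 arrays that go against their labels the difference was the same -0.18 but its adjusted p was 0.0657, and among arrays of the same scan day it was -0.15 with an adjusted p of 0.0745. Hspd1, the Hsp60 subunit, had a difference of -0.23 (adjusted p = 0.0501), just outside the threshold.

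**Figure D1:**
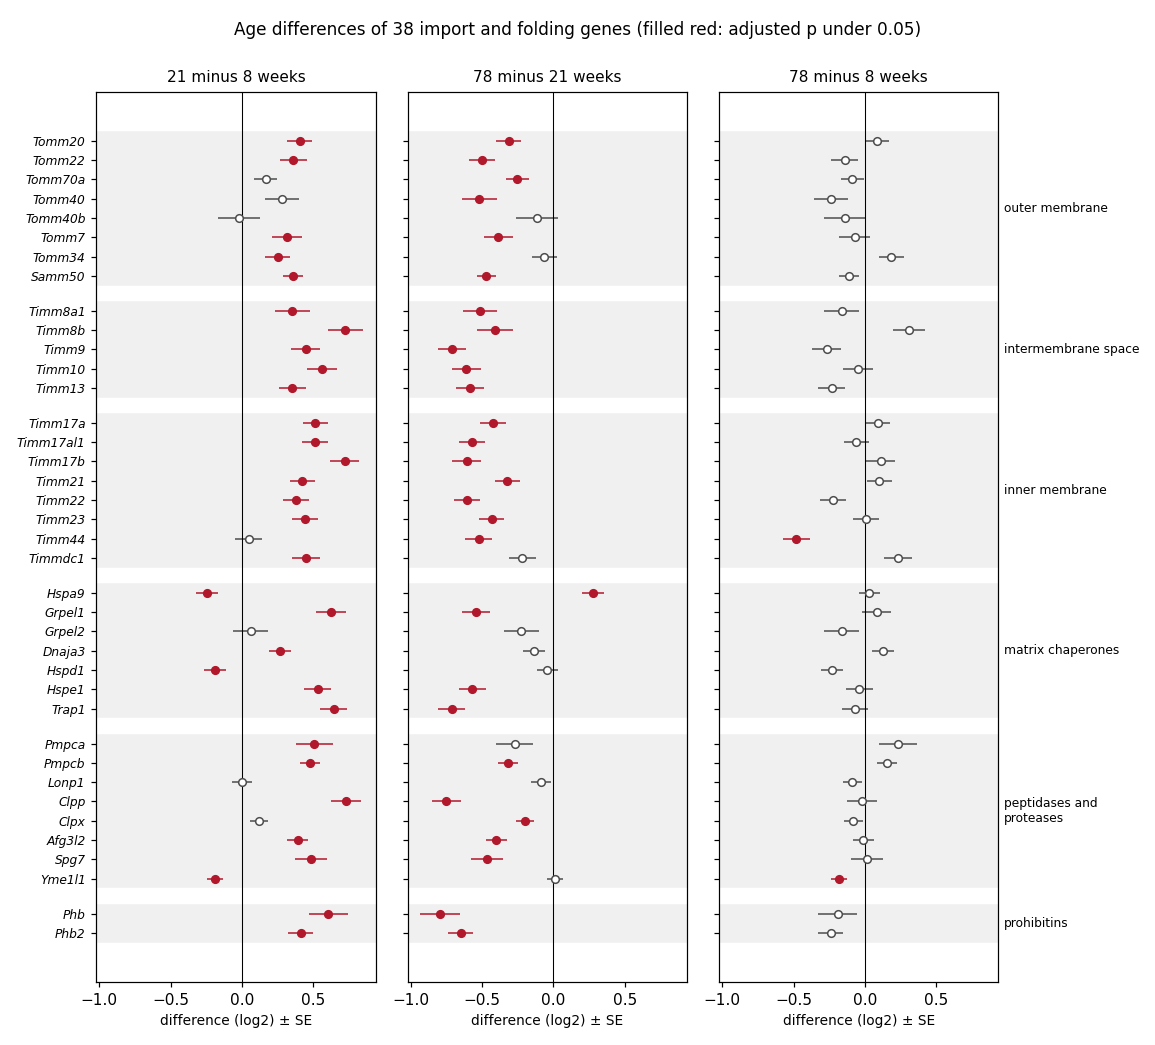
Differences in level of the 38 genes between ages, in log2 units on a common axis, in 3 panels (21 minus 8, 78 minus 21 and 78 minus 8 weeks). Points are limma estimates over both sexes and bars are standard errors; filled red points have an adjusted p under 0.05. Most points lie above 0 in the first panel, below 0 in the second and near 0 in the third, where Timm44 (-0.48) and Yme1l1 (-0.18) are filled.

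Most import and folding genes were higher at 21 weeks than at either other age with the 75th percentile scaling, and the number called differed with the processing and with the sex taken alone. Of the 38 genes 28 were higher and 3 lower at 21 than at 8 weeks in limma, against 29.8% and 18.8% of all names, with a median difference of 0.40 against 0.15 over all names. From 21 to 78 weeks 1 gene was higher and 28 were lower, against 18.2% and 23.5%, with a median of -0.43 against -0.10. These contrasts share the 21-week arrays, which shared neither a slide nor a scan day with those of 8 weeks. With the normexp correction 2 genes were higher and 0 lower at 21 than at 8 weeks, with a median of 0.0453, and none was called from 21 to 78 weeks. In females alone 6 were higher and 0 lower and then 0 higher and 9 lower, and in males alone 27 were higher and 3 lower and then 1 higher and 29 lower. Among the 21- and 78-week arrays of the same scan day 0 were higher and 4 lower. With quantile normalization 20 genes were higher and 4 lower at 21 against 8 weeks (21.8% and 20% of all names). At 78 against 21 weeks 1 was higher and 21 were lower (18.6% and 23.9%). The medians shrank to 0.20 and -0.27. The sign changed in 3 genes (Clpx, Samm50 and Tomm40b) and then in 5 (Clpx, Hspd1, Lonp1, Pmpcb and Tomm20). The dim arrays of 21-week males moved with these contrasts: without the 3 dimmest, 25 genes were higher and 1 lower at 21 than at 8 weeks, and 1 was higher and 25 were lower at 78 than at 21 weeks. With all arrays and the 75th percentile scaling, other lists moved likewise. Of 40 complex I genes 35 were higher and then 31 lower (medians 0.46 and -0.49). Of 67 mitochondrial ribosome genes 59 were higher and then 65 lower (medians 0.39 and -0.46). Of 10 cytosolic chaperones 8 were higher, and then 8 were lower and 1 higher. With quantile normalization the medians were 0.06 and -0.11 for complex I and 0.19 and -0.30 for the ribosome. The summed level of the 9 cardiomyocyte markers with a value on every array (all but Pln) was from 2450 to 3590 (times the 75th percentile) at 8 weeks, 3234 to 8342 at 21 weeks and 3139 to 4360 at 78 weeks, but the markers were mixed. Of the 9 well above background on every array 7 were higher and 1 lower at 21 than at 8 weeks. The lower 1 was Ryr2, the calcium release channel, which differed by -1.0 (adjusted p = 1.08e-05) and then by 1.19. Ttn (titin), above background on 29 arrays and so in the sum but not in this count, differed by -2.46 (adjusted p = 1.27e-08) and then by 2.71. The median difference of the 9 cardiomyocyte markers above background on every array was 0.57 and then -0.39. With quantile normalization these medians were 0.0007 and 0.01. Leukocyte markers summed to between 67.1 and 82.2 at 8 weeks and to between 88.5 and 173.4 at 21 weeks. Cd74 stood far above the other leukocyte markers (mean level 6.29, next Cd68 at 2.06). At 21 against 8 weeks Cd74 (0.57) and Cd68 (0.29) were called higher, while Ptprc (-0.02) and Cd163 (-0.24) were not called. Of 6 fibroblast markers 4 were lower and Dcn was higher (0.33, adjusted p = 0.000768), with a median difference of -0.68. Of 6 endothelial markers 4 were lower, with a median of -0.58. The part of other cells in these contrasts was not tested. In whole hearts more cells of a type and more RNA per cell cannot be told apart.

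In 15 of the 38 genes every 21-week rat with a value was above every 8-week rat with a value, against 4.9% of all names, and in none below, against 4.39%. Among the 15, Grpel1 and Samm50 had 9 values at 8 weeks and Tomm20 had 9 at 21 weeks. Timm8b had 9 values at 8 weeks and 6 at 21 weeks. In 4 genes every 78-week rat was below every 21-week rat, against 2.21%, and in none above, against 3.01%. The 4 were Trap1, an Hsp90 chaperone of the matrix, Timm9 and Timm13, small Tim chaperones, and Hspe1. Taken by place in the pathway, all 5 genes of the intermembrane space (Timm8a1, Timm8b, Timm9, Timm10 and Timm13) were higher at 21 than at 8 weeks, against 29.8% of all names, and all 5 lower at 78 than at 21 weeks, against 23.5%, with median differences of 0.44 and -0.58. With quantile normalization Timm8a1 (adjusted p = 0.154) and Timm13 (adjusted p = 0.0667) lost the first call and Timm8b (adjusted p = 0.289) the second, and without the 3 dimmest arrays Timm8a1 (adjusted p = 0.187) lost the first and Timm8b (adjusted p = 0.234) the second. Timm8b (0.72), Timm10 (0.56) and Timm9 (-0.71 from 21 to 78 weeks) were among the largest differences of these 5 genes. That of Timm8b ran from 0.50 to 0.95 with each array left out in turn. Of the 8 inner membrane genes 7 were higher and then 7 lower, with Timm17b, a channel subunit, at 0.72 and -0.61. Timm17a and its relative Timm17al1 each rose by 0.51 and then fell by 0.43 and 0.57, Timm23 rose by 0.44 and fell by 0.43, and Timm22, the channel for carrier proteins, rose by 0.38 and fell by 0.61. Of the 8 outer membrane genes 5 were higher and then 6 lower. The receptor Tomm20 differed by 0.40 (adjusted p = 0.000454) and then by -0.31 (adjusted p = 0.00498), the pore Tomm40 by 0.28 (adjusted p = 0.0561) and then by -0.52 (adjusted p = 0.00105), and the receptor Tomm70a by 0.17 (adjusted p = 0.0986) and then by -0.25 (adjusted p = 0.0156). Both prohibitins, which form ring scaffolds of the inner membrane, moved the same way: Phb differed by 0.61 (SE 0.14, adjusted p = 0.00086) and then by -0.80 (SE 0.14, adjusted p = 4.24e-05), and Phb2 by 0.41 and then by -0.65. With quantile normalization neither call held for Tomm20 (0.07, adjusted p = 0.33, and 0.02, adjusted p = 0.78) or Timm23 (0.09, adjusted p = 0.165, and -0.08, adjusted p = 0.193). Phb2 lost the first call (adjusted p = 0.154) and Tomm70a its only call (adjusted p = 0.097). Tomm40 kept its only call, and Phb, Timm17a, Timm17al1, Timm17b and Timm22 kept both.

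The chaperones and proteases of the matrix were mixed. Clpp, the proteolytic core of the ClpXP protease, had among the largest differences of the 38 genes: its level was between 2.62 and 3.09 at 8 weeks, between 3.30 and 4.23 at 21 weeks and between 2.43 and 3.32 at 78 weeks. All 21-week rats were above all 8-week rats, and the difference was 0.73 (SE 0.10, adjusted p = 4.28e-06) and then -0.75 (SE 0.10, adjusted p = 2.45e-06). Clpx, the unfoldase that feeds Clpp, differed by 0.12 (SE 0.06, adjusted p = 0.118) and then by -0.20 (SE 0.06, adjusted p = 0.0128), and both signs turned with quantile normalization. The processing peptidase subunits Pmpca and Pmpcb were higher at 21 than at 8 weeks by 0.51 and 0.47. Pmpcb then differed by -0.32 (adjusted p = 0.000522) and Pmpca by -0.27 (adjusted p = 0.107). With quantile normalization these second differences were 0.01 for Pmpcb (adjusted p = 0.856) and -0.39 for Pmpca (adjusted p = 0.0291). Spg7, a subunit of an inner membrane AAA protease, rose by 0.48 and fell by 0.47. Trap1 differed by 0.64 and then -0.71, and Grpel1, the nucleotide exchange factor of mortalin, by 0.62 and then -0.54.

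Mortalin itself ran against the rest. Hspa9 was lower at 21 than at 8 weeks (-0.25, SE 0.08, adjusted p = 0.00987) and was the only gene of the 38 that was higher at 78 than at 21 weeks (0.28, SE 0.08, adjusted p = 0.00464). Its level was between 3.35 and 3.72 at 8 weeks, between 2.62 and 3.54 at 21 weeks and between 3.41 and 3.81 at 78 weeks, and the lowest 21-week value belonged to male replicate 2, the dimmest array. Without the 3 dimmest arrays the differences were -0.19 (adjusted p = 0.0248) and 0.22 (adjusted p = 0.00902). Hspd1 and Yme1l1 were also lower at 21 than at 8 weeks (-0.19 each, adjusted p = 0.0475 for Hspd1), but no longer so without the 3 dimmest arrays (-0.10, adjusted p = 0.379 for Hspd1, and -0.16, adjusted p = 0.054 for Yme1l1).

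**Figure D2:**
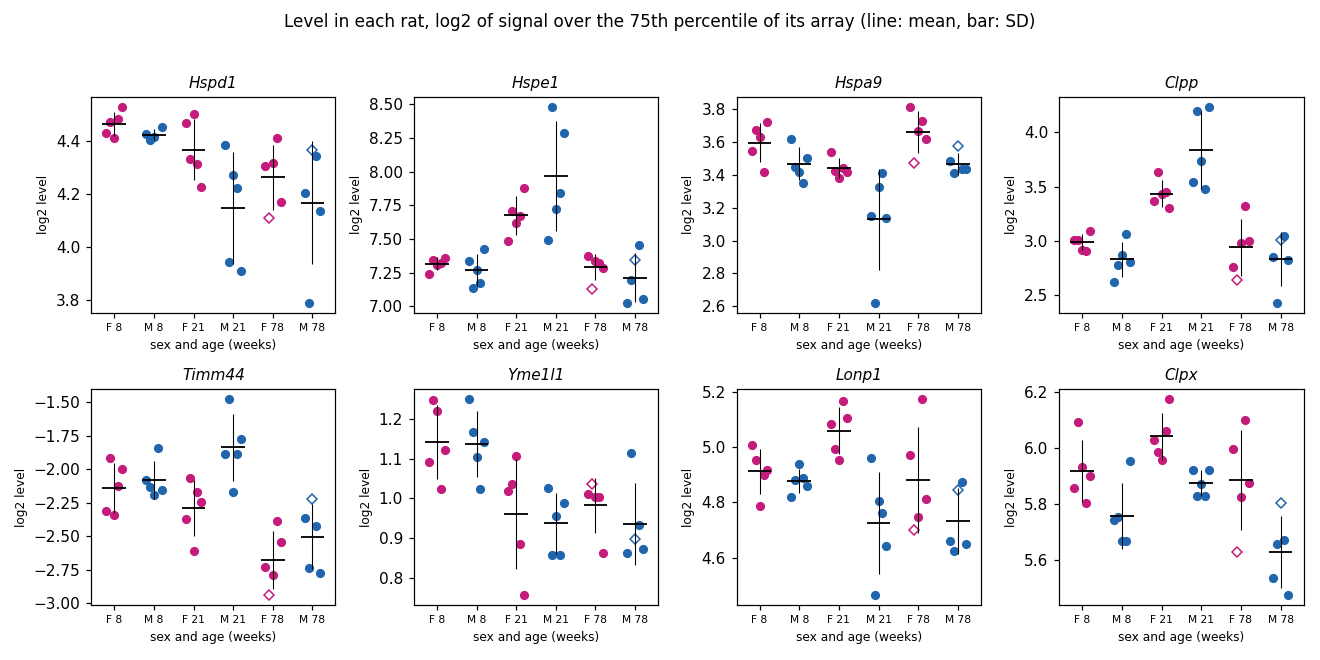
Levels of 8 genes in every rat (log2 of signal over the array's 75th percentile) by age, with females and males apart. Points are rats, horizontal lines are group means, vertical bars are SDs, and open diamonds are the 2 arrays of 78-week rats whose Y-linked genes go against their sex labels. Means of Clpp and Hspe1 are highest at 21 weeks, those of Hspa9 are lowest at 21 weeks in both sexes, and the means of Timm44 are lowest at 78 weeks.

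Hspd1 and Hspe1, whose products form one folding chamber, parted at 21 weeks. Hspe1 was higher at 21 than at 8 weeks by 0.53 (SE 0.09, adjusted p = 7.43e-05) and lower at 78 than at 21 weeks by -0.57 (SE 0.09, adjusted p = 2.87e-05), whereas Hspd1 differed by -0.19 and -0.04. With quantile normalization Hspe1 differed by 0.13 (adjusted p = 0.035) and then by -0.20 (adjusted p = 0.0029). Hspd1 then differed by -0.37 (adjusted p = 0.0023) and 0.15 (adjusted p = 0.206). The log2 ratio of Hspe1 to Hspd1 was between 2.73 and 2.97 in the 9 rats of 8 weeks with both values, between 3.02 and 4.54 at 21 weeks and between 2.82 and 3.40 at 78 weeks. Every 21-week rat thus had a larger ratio than every 8-week rat, while 78-week rats overlapped with both. The log2 ratio of Grpel1 to Hspa9 went likewise. It was between 1.34 and 1.62 in 9 rats of 8 weeks, between 1.70 and 3.60 at 21 weeks and between 1.37 and 1.79 at 78 weeks. That of Clpp to Clpx overlapped between 8 and 21 weeks. A ratio between probes has meaning here only as a change between rats.

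Across the rats of 1 age the levels of Hspd1 and Hspe1 were related at 21 weeks with a negative sign (Pearson r = -0.95, n = 10, permutation p = 0.00012, adjusted over 18 pair tests 0.00216; Spearman rho = -0.93). The r was -0.83 without the 2 rats farthest from the median, -0.785 without the 3 dimmest arrays, -0.86 in the females and -0.97 in the males. With quantile normalization it was -0.61 (permutation p = 0.0633, n = 10). At 8 and 78 weeks the r was 0.59 and 0.54 (permutation p = 0.0947 and 0.1), so that neither passed. Among the 6 pairs of partner genes taken at 3 ages, 7 of 18 tests passed an adjusted p under 0.05. At 21 weeks r was also negative for Hspa9 with Grpel1 (-0.72, adjusted permutation p = 0.063) and Clpp with Clpx (-0.58, adjusted permutation p = 0.128). Both pairs had a positive r at 8 weeks (0.72 and 0.26) and at 78 weeks (0.60 and 0.53). The remaining pairs had a positive r at 21 weeks. With quantile normalization 3 tests passed, none of them among those 7. They included these 2 pairs at 21 weeks (r = -0.862 and -0.865, adjusted permutation p = 0.0148 each). Hspd1 with Hspe1 at 21 weeks then had an adjusted permutation p of 0.163.

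**Figure D3:**
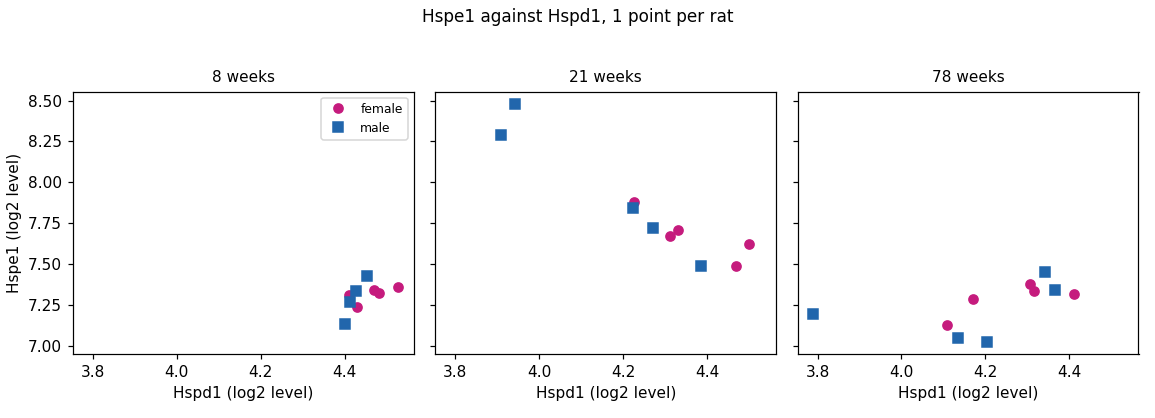
Level of Hspe1 against level of Hspd1 in each rat (both log2 of signal over the array's 75th percentile), by age and sex. The 21-week rats run from high Hspd1 with low Hspe1 to low Hspd1 with high Hspe1 (r = -0.95), and 21-week male replicates 2 and 5 lie at the far end with Hspe1 levels of 8.48 and 8.29.

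Hspd1 and Hspe1 are neighbours that face away from each other, so that the stretch between their starts is upstream of both genes. In the RefSeq promoter table, available for 33 of the 39 genes (build GRCr8), the starts lie 289 bases apart and the shared stretch of 211 bases is chr9:64084077-64084287 on the plus strand. It is shown because heat shock factor, which drives stress chaperones, binds repeats of GAA and its reverse TTC; the capitals mark 3 overlapping matches to TTCNNGAA or GAANNTTC, which each read the same on both strands.
Hspd1 and Hspe1 shared upstream stretch: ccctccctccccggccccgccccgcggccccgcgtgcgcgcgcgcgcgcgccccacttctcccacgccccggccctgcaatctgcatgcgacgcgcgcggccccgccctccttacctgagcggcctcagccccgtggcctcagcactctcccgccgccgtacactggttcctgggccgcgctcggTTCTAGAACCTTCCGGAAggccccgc
In the 250 bases upstream of 27457 rat genes, 7.23% held TTCNNGAA and 7.02% GAANNTTC. Among the 33 import and folding promoters 5 held the first (Hspd1, Hspe1, Timm10, Timmdc1 and Tomm22) and 5 the second (Clpp, Hspa9, Hspd1, Hspe1 and Spg7). The matches in the stretch that Hspd1 and Hspe1 share are counted for both genes, so these entries are not independent. A match is a run of letters and was not tested as a binding site.

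No import or folding gene differed between females and males at an adjusted p under 0.05 at any age, where 0.113%, 0.061% and 0% of all names were called at 8, 21 and 78 weeks. At 8 weeks 24 of the 38 genes had the higher mean in females, against 51.7% of all names. None reached an unadjusted p under 0.05 in limma, against 2.6% of all names higher in females and 3.31% higher in males. The median difference, female minus male, was 0.03, against 0.01 over all names. The smallest p-values belonged to Clpx (0.16), Clpp (0.16), Grpel2, a second exchange factor of mortalin (0.18), Samm50, which builds outer membrane barrels (0.10), and Hspa9 (0.13), as differences in log2 level. In 3 genes (Grpel1, Samm50 and Timm21) every female was above every male, against 0.816% of all names, but each lacked the value of 1 male; none had every female below every male, against 0.821%.

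At 21 weeks 32 of the 38 genes had the higher mean in males, with a median difference of -0.22 against -0.11 over all names, of which 39.3% had the higher mean in females. Lonp1 was higher in females and 4 genes (Timm44, Phb, Timmdc1 and Clpp) were higher in males at an unadjusted p under 0.05 in limma, with no adjusted p below 0.285, against 7.49% and 8.04% of all names. These are the males with the 3 dim arrays. Without those arrays no gene reached an unadjusted p under 0.05, the median was -0.07 and 15 genes had the higher mean in females. With quantile normalization the median was -0.12, and with a normexp background correction it turned to 0.32. The cardiomyocyte markers summed to between 3742 and 8342 in the 21-week males and to between 3234 and 4622 in the females, but Ryr2 and Ttn had the higher mean in females, by 0.76 and 1.0 (unadjusted p = 0.0251 and 0.0354 in limma, adjusted p = 0.294 and 0.308). For the 9 markers above background on every array the median difference, female minus male, was -0.38. With quantile normalization it was 0.02.

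Lonp1, the ATP-dependent protease that clears misfolded and oxidised matrix proteins, had levels of 5.08, 4.99, 4.95, 5.17 and 5.11 in the 21-week females and of 4.96, 4.46, 4.80, 4.76 and 4.64 in the males. All females but 1 were above the highest male, and the difference was 0.33 (SE 0.13, limma adjusted p = 0.294; exact permutation p = 0.0159, of which the smallest possible is 0.00794). Without the 3 dimmest arrays it was 0.18 (SE 0.13, adjusted p = 0.845). Phb levels were 5.47, 5.79, 5.64, 5.63 and 5.00 in the females and 5.90, 6.31, 5.88, 5.65 and 6.62 in the males. The highest males were replicates 2 and 5, and the difference of -0.57 (SE 0.22, adjusted p = 0.294) was -0.38 without the 3 dimmest arrays. Timm44 differed by -0.45 (adjusted p = 0.285), Timmdc1, a protein related to the TIM17 family that helps to assemble complex I, by -0.45 (adjusted p = 0.303), and Clpp by -0.40 (adjusted p = 0.327). Clpx, outside these 5 genes, was named after its values were seen: all 5 females (5.96 to 6.18) were above all 5 males (5.83 to 5.92), against 2.69% of all names (limma adjusted p = 0.425). Timm8b, with values of 4 females and 2 males only, was the reverse, against 1.79% of all names.

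**Figure D4:**
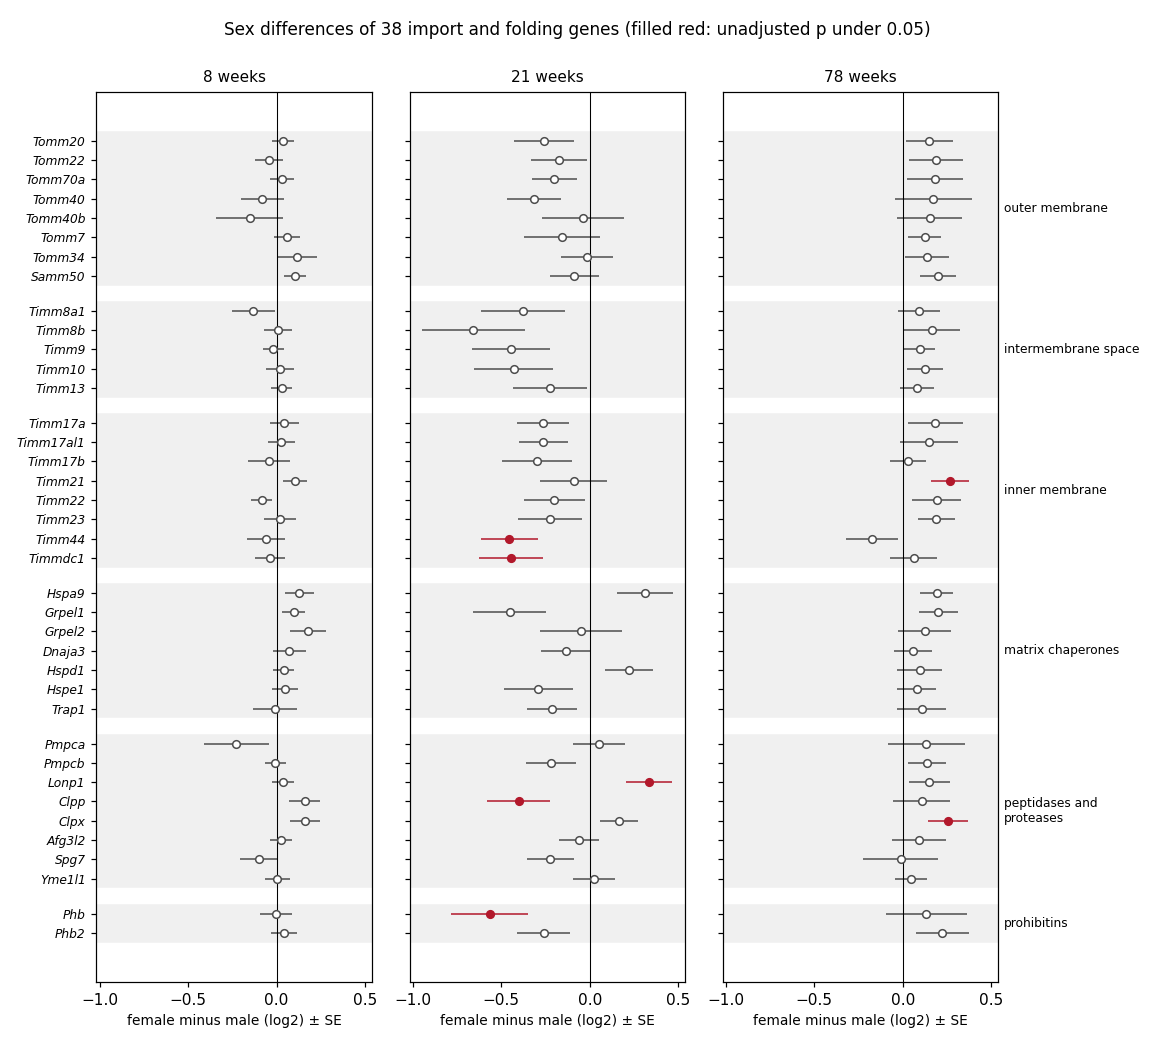
Female minus male differences in level (log2) of the 38 genes at 8, 21 and 78 weeks. Points are limma estimates from the 10 arrays of an age and bars are standard errors; filled red points have an unadjusted p under 0.05 and no point has an adjusted p under 0.05. Points lie around 0 at 8 weeks, mostly below 0 at 21 weeks (median -0.22) and mostly above 0 at 78 weeks (median 0.14).

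At 78 weeks 36 of the 38 genes had the higher mean in females, against 53.4% of all names, with a median difference of 0.14 against 0.02. Only Timm21 and Clpx reached an unadjusted p under 0.05 in limma, both higher in females, against 2.5% of all names in that direction and 3.29% in the other. The count of 2 was 1 with the replicate number as a block, and 0 with the slide as a block, with quantile normalization, with normexp and in the authors' table. Timm21, which links the TOM and TIM23 complexes, had levels of 5.90, 5.70, 5.88 and 5.66 in 4 females (replicate 2 lacked a value) and of 5.45, 5.66, 5.52, 5.59 and 5.37 in the males. The lowest female, at 5.66, lay just above the highest male, the only gene without overlap, against 0.626% of all names, and the difference was 0.27 (SE 0.11, adjusted p = 0.843). Clpx had levels of 5.996, 5.63, 5.83, 6.10 and 5.88 in the females and of 5.54, 5.66, 5.80, 5.67 and 5.47 in the males. The lowest female was replicate 2 and the highest male replicate 3, the 2 arrays that go against their labels; the difference was 0.26 (SE 0.11) with all arrays and 0.36 (SE 0.12, adjusted p = 0.497) without them. Hspa9, Samm50 and Timm23, the channel of the TIM23 complex, differed by 0.19, 0.20 and 0.19 with all arrays and by 0.27, 0.25 and 0.25 without the 2. Without the 2 arrays 36 genes again had the higher mean in females.

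The sign shared at 78 weeks was found in other mitochondrial lists as well. Of 40 complex I genes 38 had the higher mean in females, with a median difference of 0.15, and of 67 mitochondrial ribosome genes 61, with a median of 0.12. At 21 weeks 2 of 40 complex I genes and 3 of 67 ribosome genes had the higher mean in females, with medians of -0.29 and -0.26. With quantile normalization the 78-week medians were 0.07 for both the import genes and complex I, and with normexp the import genes' median turned to -0.22. The difference between the sexes did not differ between ages for any of the 38 genes at an adjusted p under 0.05 (interaction in limma, called in 0.00409%, 0.00408% and 0% of all names for 21 against 8, 78 against 21 and 78 against 8 weeks). At an unadjusted p under 0.05, 7 genes differed in it between 21 and 8 weeks, against 13.6% of all names, 16 between 78 and 21 weeks, against 15%, and none between 78 and 8 weeks, against 3.19%, with the smallest adjusted p of 0.182 for Grpel1 between 78 and 21 weeks.

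Further probes with the names of these genes differed from the main probes in their change between 8 and 78 weeks. Of 22 further probes 17, of 15 genes, lay on the opposite strand of the main probe, and 10 of these, of 9 genes, were well above background on all arrays. All 10 had the higher mean at 78 than at 8 weeks, with a median difference of 0.37, and 5 passed an adjusted p under 0.05 (limma), against 6.67% of all names called higher. The 5 were those of Lonp1 (0.34, SE 0.08, adjusted p = 0.00414), Timm13 (0.50 and 0.41 for 2 probes), Phb2 (0.48) and Trap1 (0.49). The main probes of the same genes differed by -0.09, -0.23, -0.24 and -0.07. The 5 opposite-strand probes were dimmer than these, by mean differences in level from -3.46 (Trap1) to -6.66 (Phb2). Those of Trap1 and Phb2 and the Timm13 probe at 0.41 shared runs of only 8, 7 and 6 complementary bases with the main probe. They were placed on the opposite strand by their annotated positions. The difference was not particular to the oldest rats. Of the 10 opposite-strand probes 7 were called higher and 1 lower at 21 than at 8 weeks (median 0.42), against 29.8% and 18.8% of all names. From 21 to 78 weeks 1 was called higher and 0 lower (median -0.002), against 18.2% and 23.5%.

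The opposite-strand probe of Lonp1 had levels from -0.94 to -0.52 with a median of -0.70 at 8 weeks, from -0.75 to -0.13 with a median of -0.63 at 21 weeks, and from -0.60 to 0.04 with a median of -0.43 at 78 weeks. Old rats lay mostly above young rats, with overlap. The Timm13 probe printed above ran from -0.76 to -0.21 at 8 weeks, from -0.56 to 0.79 at 21 weeks and from -0.04 to 0.23 at 78 weeks, so that every 78-week rat was above every 8-week rat. That of Timm8b, complementary to the main probe over all its bases, differed by 0.19 (adjusted p = 0.536). Among arrays of the same scan day 10 of the 10 were higher and 7 passed, whereas with the slide as a fixed block 8 were higher and none passed, and in females alone none passed. Which RNA gave these signals was not tested.

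**Figure D5:**
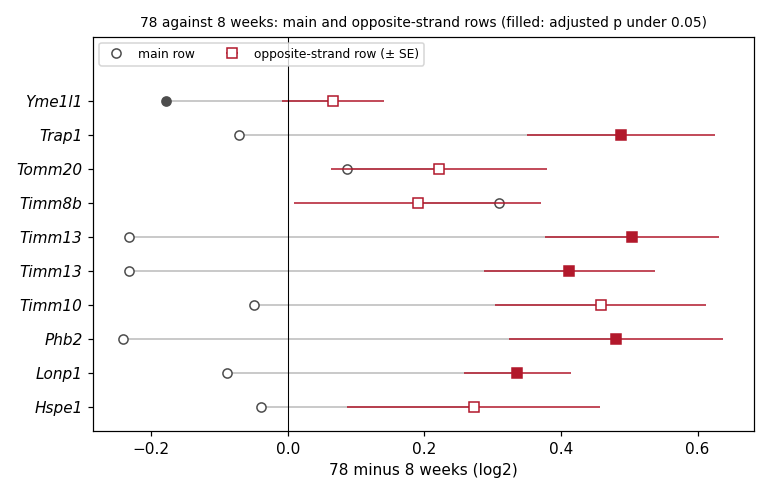
Differences in level between 78 and 8 weeks (log2) of the 10 opposite-strand probes that were well above background on all arrays, beside the main probe of the same gene (each called a row in the legend). Bars are standard errors of the opposite-strand probes and filled points have an adjusted p under 0.05. All 10 opposite-strand probes lie above 0 (median 0.37), while most main probes lie at or below 0.

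A second probe of Timm17a, on the same strand as the first, went against it. The first probe of this channel subunit differed by 0.51 (SE 0.09) between 21 and 8 weeks and by -0.43 between 78 and 21 weeks, whereas the second had its lowest levels at 21 weeks. Levels of the second probe ran from -3.02 to -1.71 at 8 weeks, from -5.06 to -3.26 at 21 weeks and from -3.07 to -2.08 at 78 weeks, without overlap of 21 weeks with the other ages. At 21 weeks it was well above background in 1 of 5 females and 0 of 5 males. For 21-week males the fold was counted from the lowest signal well above background. Their level was then at least 3.19-fold lower than at 8 weeks and at least 2.59-fold lower than at 78 weeks. In 21-week females the measured mean (-3.85), mostly of values not above background, was 3.05-fold lower than at 8 weeks and 2.82-fold lower than at 78 weeks. Over both sexes the measured levels gave adjusted p = 4.08e-08 and 1.39e-07 in limma. A probe with the name of Hspd1 that lay at another locus, on chr1, and was well above background on all arrays, was lower at 78 than at 8 weeks by -0.32 (SE 0.09, adjusted p = 0.0132), in the direction of the main probe (-0.23). The second probe of Timm23 moved with the first, by 0.53 and then -0.48.

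Partner genes outside the 39 were compared between 78 and 8 weeks, where 6.67% of all names were called higher and 6.21% lower. Of 10 further import genes well above background on all arrays none was higher and 2 were lower in limma: Oxa1l, which inserts proteins into the inner membrane from the matrix (-0.35, adjusted p = 0.00447), and Mtx2, an outer membrane partner of Samm50 (-0.25, adjusted p = 0.0473). Of 13 genes of mitochondrial quality control and cristae 1 was higher, the stress protease Oma1 (0.27, adjusted p = 0.0133), and 1 lower, the cristae protein Chchd3 (-0.38, adjusted p = 0.000123). Of 10 cytosolic chaperones only Stip1, which passes clients between Hsp70 and Hsp90, was called, and it was lower (-0.27, adjusted p = 0.0344). Of 7 genes of the mitochondrial stress response 5 were well above background on all arrays, of which Trib3 was higher (0.48, adjusted p = 0.0119), and the transcription factors Atf4, Atf5 and Ddit3 differed by 0.03, 0.10 and -0.03 with no call. The other 2 were Gdf15, a secreted stress factor, which was higher (2.13, adjusted p = 0.00071) but above background on 21 of 30 arrays, and Fgf21, above background on 14 (-0.18, adjusted p = 0.69). Markers of other cells moved between these ages too: 3 of 6 fibroblast markers were lower, with a median difference of -0.47, 2 of 6 endothelial markers were lower (Cdh5 by -0.63 and Tie1 by -0.59), and 1 of 2 adipocyte markers above background was higher, with a median of 1.31. Of 7 leukocyte markers Cd68 (0.39, adjusted p = 0.00334) and Cd163 (0.71, adjusted p = 0.0406, above background on 28 arrays) were higher and Cd79b, above background on 3 arrays, was lower. Their part in the differences of the import genes was not tested.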

How the data were processed

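Per the labels, cRNA of 30 hearts was labelled with Cy3 and hybridised to Agilent rat arrays that the authors scanned and read with Agilent Feature Extraction. The deposited scanner files hold processed signal intensity, from which the log2 of each spot over its array's 75th percentile was computed here. The authors also deposited normalized signals, not on the log2 scale. For 97.5% to 98.0% of their rows the log2 of these signals matched within 0.002 after a constant shift. Flagged spots were left out, repeated spots were averaged, and of several probes with a gene's name the brightest over all arrays was used. limma 3.58.1 (R 4.3.3) compared females with males within each age (10 arrays) and ages over all 30 arrays, with Benjamini-Hochberg adjustment over all probes. Single values were compared with exact permutation tests (two-sided), pairs with 100000 permutations. Named genes were, by age, the called members with the largest differences (up to 12 in each direction), by sex the 5 with the smallest p at each age, a fixed set of subunits and chaperones, and genes whose probes disagree. The members and lists were chosen with earlier results of these data known. The limma script was tested on simulated data. Alternatives were another scaling, background correction, probe choice, block, subsets of arrays and the methods' t-test. p-values measure the spread between single hearts, each on 1 array, and the number of arrays limits the precision. The deposited columns of 21-week males could not be tied to single rats, so the scanner files were used.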

Additional observations from a re-analysis of the deposited data

Results flagged for a closer look

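Among 66 groups of rats tested for a stray value (11 genes in 6 groups), 2 held one by Dixon's criterion, and chance gives about 1 in 20. Both were levels of Yme1l1 at 78 weeks. Female replicate 5 had the lowest value of its group, 0.86 against 1.0 for the next, a gap of 0.814 of the group's range. Male replicate 2 had the highest, 1.11 against 0.93, a gap of 0.72 of the range.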

How the results depend on the processing

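The comparisons were repeated under other settings, of which those on opposite-strand probes and on the 3 dimmest arrays were chosen after seeing the data. No call between the sexes at an adjusted p under 0.05 appeared under any setting run, and the interaction of sex and age gave 0 adjusted calls under each setting run for it. Unless said otherwise, counts by sex are at an unadjusted p under 0.05 and counts by age at an adjusted p under 0.05. The cause of the changes below was not tested.

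With normexp background correction, whose offset of 50 is of the order of the arrays' 75th percentiles, the 21-week count higher in males went to 0, the genes with the higher mean in females to 30, the median to 0.32 and Clpp to 0.25. At 78 weeks the count higher in females went to 0, the genes with the higher mean in females to 8, the median to -0.22, Timm21 to -0.33, Clpx to -0.22, Samm50 to -0.26 and Timm23 to -0.23. Between 21 and 8 weeks 2 genes were higher and 0 lower, with a median of 0.0453 and Timm8b at -0.11. Between 78 and 21 weeks 0 were higher and 0 lower, and between 78 and 8 weeks 0 were lower, with a median of -0.31 and Timm44 at 0.0572, and 2 opposite-strand probes were higher.

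With quantile normalization 13 genes had the higher mean in females at 8 weeks, with Samm50 at -0.0029. At 21 weeks 2 genes passed with females higher and 7 with males higher, at 78 weeks 0 were higher in females, between 78 and 8 weeks 2 were higher and 7 lower, and 3 pair relations passed; 1 pair relation passed without the 2 rats farthest from the median. With the raw median signal 1 gene was higher in females at 8 weeks, 2 were so at 21 weeks, where 10 had the higher mean in females, and 5 were lower at 78 than at 8 weeks.

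With the first probe of each name in place of the brightest, 1 gene passed in each direction at 8 weeks, with Hspa9 at -0.18, and 0 were higher in females at 78 weeks, with Timm21 at -0.50, Clpx at -0.16 and Hspa9 at -0.0357. Between 21 and 8 weeks 1 gene was lower, with Timm17a at -1.90 on a probe mostly below background at 21 weeks, Hspa9 at 0.83, Yme1l1 at 0.21 and Hspd1 at 0.50. Between 78 and 21 weeks 17 were lower, with Hspa9 at -0.37, Trap1 at 0.20, Phb2 at 0.0361 and Timm10 at 0.0149. Between 78 and 8 weeks 4 were higher and 1 lower, with Yme1l1 at 0.0780. The first probes of Hspa9, Timm21, Clpx, Yme1l1, Hspd1, Trap1, Phb2 and Timm10 lay on the opposite strand of the main probe. Those of Clpx, Yme1l1 and Hspd1 were well above background on 0 arrays, that of Timm21 on 2 and that of Hspa9 on 18. With the mean of all probes of a name 1 gene was higher in males at 8 weeks, with Hspa9 at -0.0249, and 0 were higher in females at 78 weeks. Then 1 gene was lower between 21 and 8 weeks, with Timm17a at -0.69 and Hspa9 at 0.29, Hspa9 was at -0.0445 between 78 and 21 weeks, and 1 gene was lower between 78 and 8 weeks.

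In females alone 6 genes were higher and 0 lower between 21 and 8 weeks, 0 higher and 9 lower between 78 and 21 weeks, 1 lower between 78 and 8 weeks and 0 opposite-strand probes higher. In males alone 0 genes were lower and 1 opposite-strand probe was higher between 78 and 8 weeks. Among arrays of the same scan day 1 gene was higher and 10 lower between 78 and 8 weeks, and 0 higher and 4 lower between 78 and 21 weeks. With the slide as a fixed block, or on the slide that holds both ages alone, 0 genes were lower between 78 and 8 weeks, and with the fixed block 0 opposite-strand probes were higher. Without the 2 arrays that go against their labels 1 gene was lower between 78 and 8 weeks. Without the 3 dimmest arrays 0 genes were higher in females and 0 in males at 21 weeks, 15 had the higher mean in females, and 1 gene was lower between 21 and 8 weeks.

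Probes above background on at least 15 arrays gave 1 gene higher and 5 lower between 78 and 8 weeks, and those on at least 5 arrays 7 higher in males at 21 weeks. The methods' t-test gave 3 genes with females and 1 with males higher at 8 weeks, 2 and 6 at 21 weeks, and 4 with females higher at 78 weeks, with 0 after Benjamini-Hochberg adjustment at each age. The authors' table and the slide as a block each gave 0 higher in females at 78 weeks. Same-numbered females and males of an age shared a slide, but their deviations did not correlate above 0.1 in every pair, so that the numbers were not taken as pairs; with the replicate block 1 gene was higher in females at 78 weeks and no other count moved by over 1.5 times.

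Leaving out each array in turn gave 0 to 1 genes with females higher at 8 weeks, 0 to 2 with females and 1 to 8 with males higher at 21 weeks, with 6 to 10 genes of higher mean in females and a median from -0.28 to -0.13, and 0 to 4 higher in females at 78 weeks, with a median from 0.06 to 0.18. Between 78 and 8 weeks it gave 0 to 1 genes higher and 1 to 6 lower, and 3 to 6 opposite-strand probes higher. Between 21 and 8 weeks 28 to 29 genes were higher and 2 to 3 lower, and between 78 and 21 weeks 1 was higher and 27 to 30 were lower.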
